A study of Homo sapiens with 12 samples.

Results

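The KRAB zinc finger genes of chromosome band 19p12, the cluster that holds ZNF737, were followed across 12 arrays of A172, a glioma line grown from human glioblastoma tissue. The rule lists 30 member genes and takes for each the probe set with a single gene symbol and the highest mean over the arrays. By this rule 28 members had a probe set of their own, ZNF98 was read only by a probe set shared with ZNF492 and ZNF85, and ZNF66 had none, which left 29 measured members among 18418 genes. The cluster was chosen by the levels of ZNF737 on these arrays, so ZNF737 is described here without a test. The other members are listed genes of the same cluster, and the list, drawn up with earlier results of these arrays known, leaves out some zinc finger genes of the span. Tests of the other members ran over all genes and are given as a description.

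The arrays fell into 4 groups of 3 cultures. Clone 7 and clone 8 were stable A172 clones, each carrying the vector pcDNA3.1 with hHSS1, the secreted and membrane protein gene now called EMC10, with a 6-His tag. The mock line carried the empty vector, and wild-type cells had not been transfected. Stable clones were kept in G-418, and all cultures were harvested on day 4 in exponential growth. Each of the 3 transfected groups was 1 stable line, so that the spread between replicates measured the spread between cultures of a line and not between lines, and hHSS1 cannot be told apart from other differences between 1 line and another.

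KRAB zinc finger proteins bind DNA through tandem arrays of C2H2 zinc fingers and carry a KRAB domain that recruits the co-repressor TRIM28. TRIM28 brings in the methyltransferase SETDB1 and HP1 proteins, and the bound locus is packed into chromatin marked by methylated histone H3 lysine 9. Many members of this primate-expanded cluster arose by tandem duplication and silence transposable elements. ZNF91 is known to bind SVA elements and ZNF93 to bind LINE-1 elements. Because the genes are copies of each other, the probes of 1 member may also bind transcripts of another, and every value below carries that limit.

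The shared origin shows in the sequence before most of these genes. RefSeq promoters (GRCh38.p14), 250 bases before to 50 after the start, were at hand for 25 members. They are printed for the 5 members with the widest range over the arrays, and for ZNF714, which varied little. Capitals mark the CCAAT box, as CCAAT or on the other strand as ATTGG.
ZNF737: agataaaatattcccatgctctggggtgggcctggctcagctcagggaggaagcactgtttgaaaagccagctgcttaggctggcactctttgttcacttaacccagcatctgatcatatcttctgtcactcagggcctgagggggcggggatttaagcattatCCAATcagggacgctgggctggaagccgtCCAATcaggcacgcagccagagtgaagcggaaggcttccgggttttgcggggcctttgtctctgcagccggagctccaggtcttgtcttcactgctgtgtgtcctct
ZNF100: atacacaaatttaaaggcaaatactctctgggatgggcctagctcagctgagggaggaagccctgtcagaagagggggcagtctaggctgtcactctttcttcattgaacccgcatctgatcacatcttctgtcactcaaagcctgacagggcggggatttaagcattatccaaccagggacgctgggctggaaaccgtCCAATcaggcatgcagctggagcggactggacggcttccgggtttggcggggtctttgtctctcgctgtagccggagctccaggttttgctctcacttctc
ZNF429: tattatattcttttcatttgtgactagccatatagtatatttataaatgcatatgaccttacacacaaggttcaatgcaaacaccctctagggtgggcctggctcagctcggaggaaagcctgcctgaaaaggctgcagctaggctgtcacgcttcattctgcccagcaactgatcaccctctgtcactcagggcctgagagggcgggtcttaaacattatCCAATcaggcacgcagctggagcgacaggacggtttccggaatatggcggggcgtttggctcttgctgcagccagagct
ZNF486: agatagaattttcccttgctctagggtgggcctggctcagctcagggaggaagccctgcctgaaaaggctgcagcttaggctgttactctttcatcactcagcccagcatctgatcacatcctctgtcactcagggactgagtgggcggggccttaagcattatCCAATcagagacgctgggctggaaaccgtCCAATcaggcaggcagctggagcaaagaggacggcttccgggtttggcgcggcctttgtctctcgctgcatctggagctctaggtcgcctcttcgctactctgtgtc
ZNF91: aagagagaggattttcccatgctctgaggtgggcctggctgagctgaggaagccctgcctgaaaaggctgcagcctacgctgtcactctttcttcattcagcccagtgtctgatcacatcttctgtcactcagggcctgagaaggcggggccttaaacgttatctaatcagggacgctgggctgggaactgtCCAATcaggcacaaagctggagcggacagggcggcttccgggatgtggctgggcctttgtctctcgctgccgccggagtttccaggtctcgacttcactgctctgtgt
ZNF714: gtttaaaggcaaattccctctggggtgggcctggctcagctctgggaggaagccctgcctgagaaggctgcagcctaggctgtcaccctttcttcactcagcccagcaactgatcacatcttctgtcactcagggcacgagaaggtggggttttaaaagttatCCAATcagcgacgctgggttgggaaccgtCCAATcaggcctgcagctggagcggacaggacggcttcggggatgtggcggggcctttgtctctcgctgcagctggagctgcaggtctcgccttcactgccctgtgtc
These windows lay on chromosome 19 at chr19:20565732-20566031 (ZNF737, minus strand), chr19:21767530-21767829 (ZNF100, minus strand), chr19:21505352-21505651 (ZNF429, plus strand), chr19:20166964-20167263 (ZNF486, plus strand), chr19:23395422-23395721 (ZNF91, minus strand) and chr19:21081953-21082252 (ZNF714, plus strand). The 25 promoters aligned to each other over their best local stretch with a median identity of 83.6%, and 255 of the 300 pairs reached 80%. Not all stretches were long: that of ZNF14 ran from 29 bases (with ZNF430) to 112 (with ZNF429). ZNF682 was at 67.5% (ZNF493) to 74.6% (ZNF430) with members other than ZNF14. The closest pair was ZNF714 and ZNF431 (91.3% over 298 bases), while ZNF737 and ZNF91 were at 82.8% over 291 bases. CCAAT on either strand stood in 25 of 25 member promoters, against 34.6% of all 35116 promoters of this length. The GC box GGGCGG on either strand stood in 18 (72%), against 45% of all promoters, and TATAAA on either strand in 3 (12%), against 11.5%. The run CTGTCACTCAGG does not overlap these motifs in its letters. It was picked as the 12-base run present in the largest number of member promoters, so its high share among them follows from that choice. It was found in 17 members, and on either strand in 0.108% of all promoters (38 promoters, members included, of which 30 belonged to genes with a ZNF or ZFP symbol). ZNF737, ZNF429, ZNF486, ZNF91 and ZNF714 held that run and ZNF100 did not. All of the printed promoters held CCAAT, and all of them but that of ZNF714 held GGGCGG.

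Before the members, the labels were checked. EMC10, the transfected gene, was at 11.57, 11.72 and 12.30 in clone 7, at 12.13, 12.18 and 11.75 in clone 8, at 9.20, 9.33 and 9.51 in mock and at 11.13, 10.43 and 10.69 in wild-type cells (log2 level, replicates 1 to 3). All 6 clone arrays were thus above every control array. Genes off chromosome 19 (17108 genes, each centred on its mean) were then used to compare the arrays with each other. Replicates correlated at 0.56 to 0.66 within mock and at 0.55 to 0.70 within wild-type, and replicates 1 and 2 of clone 7 at 0.79. Replicates 1 and 2 of clone 8 correlated at only 0.29, below every pair within mock or within wild-type. The array labelled clone 7 replicate 3 correlated at -0.32 and -0.34 with replicates 1 and 2 of clone 7, but at 0.48 and 0.77 with replicates 1 and 2 of clone 8. The array labelled clone 8 replicate 3 correlated at 0.09 and -0.41 with replicates 1 and 2 of clone 8, but at 0.64 and 0.56 with those of clone 7. The third array of each clone therefore went against their labels. Both were kept in the groups their labels give. Member counts past both limits are also given from the 10 arrays left without them (2 per clone and 3 per control), a choice made after the data were seen. The markers and further gene lists are given on 12 arrays unless the 10 arrays are named. The array of clone 8 replicate 1 also stood apart: the median member was at 8.51 on it and at 8.83 to 9.17 on the other 11, while the median of all genes was 9.19 to 9.23 on every array. A fit of 9 arrays, without this array and the third of both clones, is given below for the clones, again chosen after the data were seen.

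**Figure D1:**
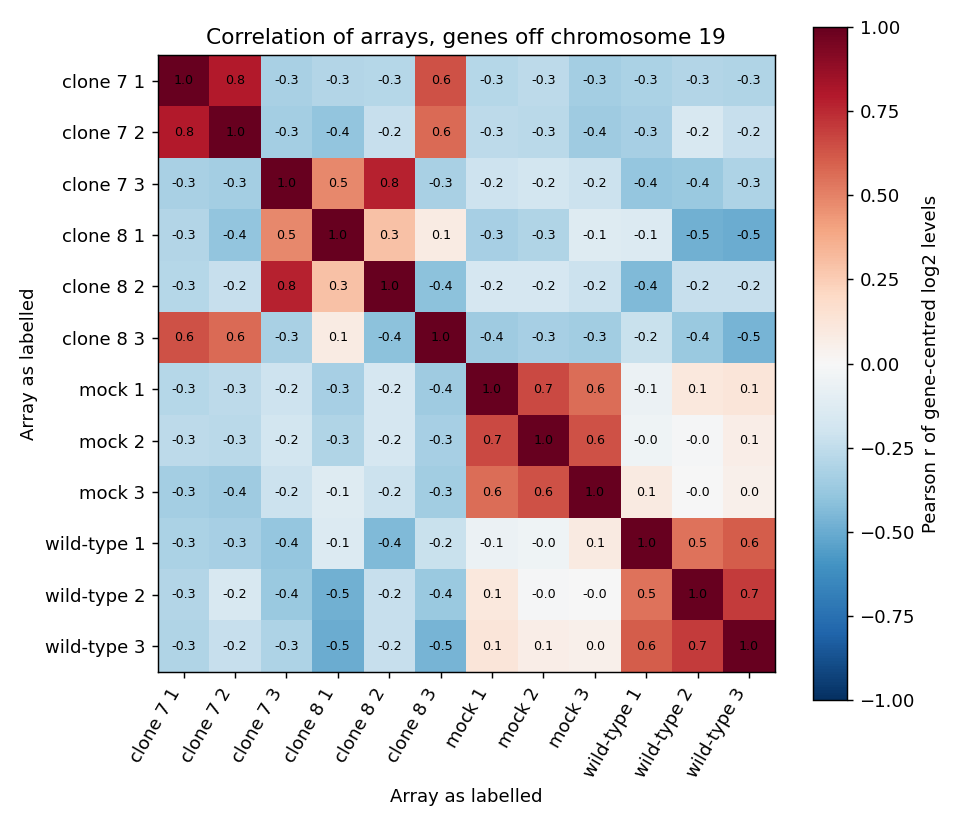
Pearson correlation between the 12 arrays over genes off chromosome 19, each gene centred on its mean; both axes list the arrays as labelled, and colour and number give r. The array labelled clone 7 replicate 3 pairs with replicates 1 and 2 of clone 8 (0.48 and 0.77), and the array labelled clone 8 replicate 3 with replicates 1 and 2 of clone 7 (0.64 and 0.56).

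The glioma and astroglial markers were all measured (8 of 8). Vimentin (VIM) and CD44 were the brightest of this list, at 13.37 to 13.74 and 13.16 to 13.65 over the 12 arrays. The epithelial keratin genes KRT8 (13.21 to 13.76) and KRT18 (13.46 to 13.80) were at similar levels. GFAP lay at 8.57 to 8.92, near the array medians of 8.60 to 8.67, and S100B was below the lower quartile of every array. The stem cell intermediate filament gene NES was lower in the clones relative to mock (log2 -0.73 ± 0.06 SE, limma adjusted p = 5.89e-05). By the adjusted p alone NES was also lower in mock than in wild-type cells (-0.44 ± 0.07, adjusted p = 0.00723). Against wild-type, NES (-1.17 ± 0.06, adjusted p = 9.75e-07) and SOX2 (-0.59 ± 0.08, adjusted p = 0.000527) were lower in the clones past both limits. In that comparison 1 of the 8 was higher by the adjusted p alone. The summed log2 level of this list was 78.07 to 78.29 in clone 7, 78.12 to 79.13 in clone 8, 79.28 to 79.84 in mock and 79.61 to 80.22 in wild-type cells. Of 16 leukocyte, epithelial, endothelial and neuronal markers 15 were measured and 0 passed both limits in the clones against mock, with STMN2 alone passing the adjusted p (log2 0.30 ± 0.06, adjusted p = 0.0116). In mock against wild-type cells the neuronal gene STMN2 was lower past both limits (-0.79 ± 0.07, adjusted p = 6.60e-05), and by the adjusted p alone the neuronal gene SYT1 was lower (-0.53 ± 0.11, adjusted p = 0.0195) and the epithelial keratin gene KRT8 higher (0.48 ± 0.05, adjusted p = 0.000416). The neuronal genes SNAP25 (0.11 ± 0.12) and RBFOX3 (0.00 ± 0.09) and the epithelial genes EPCAM (-0.22 ± 0.06), CDH1 (0.10 ± 0.07) and KRT18 (0.24 ± 0.06) passed neither limit there. In the clones against wild-type the leukocyte gene PTPRC was lower past both limits (-0.63 ± 0.16, adjusted p = 0.0277). The other measured leukocyte genes, CD3E (0.20 ± 0.07) and CD14 (0.08 ± 0.08), went the other way and passed neither limit. By the adjusted p alone KRT8 (0.37 ± 0.05, adjusted p = 0.00038) and KRT18 (0.23 ± 0.05, adjusted p = 0.0155) were higher in the clones than in wild-type cells. STMN2 (-0.49 ± 0.06, adjusted p = 0.000366) and SYT1 (-0.36 ± 0.09, adjusted p = 0.0281) were lower there by the adjusted p alone. EPCAM, CDH1, SNAP25 and RBFOX3 passed neither limit in that comparison. The summed neuronal level was 35.08 to 35.40 in clone 7, 34.83 to 35.64 in clone 8, 34.56 to 34.95 in mock and 35.79 to 36.20 in wild-type cells, and the part of these markers in the results below was not tested.

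On the probe sets used, the members ran from 4.27 (ZNF43) to 12.37 (ZNF257). ZNF257 was at 11.90 to 12.37, and ZNF714, ZNF254, ZNF626 and ZNF208 lay between 9.65 and 10.73 on every array. These levels depend on the probe set. Another single-symbol probe set gave group means of 6.43 to 6.67 for ZNF257, 4.08 to 4.47 for ZNF208 and 7.17 to 7.92 for ZNF626. ZNF43, ZNF676, ZNF99 and ZNF681 stayed under the lower quartile of all 12 arrays (7.00 to 7.12), and 17 members stayed above it on all 12. Levels of different probe sets have different probe affinities and are not ranked further. The median range over the 12 arrays was 0.54 log2 units for the 29 measured members, ZNF737 included, and 0.41 for all genes. Besides ZNF737, for whose levels the cluster was chosen, a range over 1 log2 unit was reached by ZNF100, ZNF486, ZNF91, ZNF429, ZNF682 and ZNF492. Of all genes 3.55% had such a range.

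**Figure D2:**
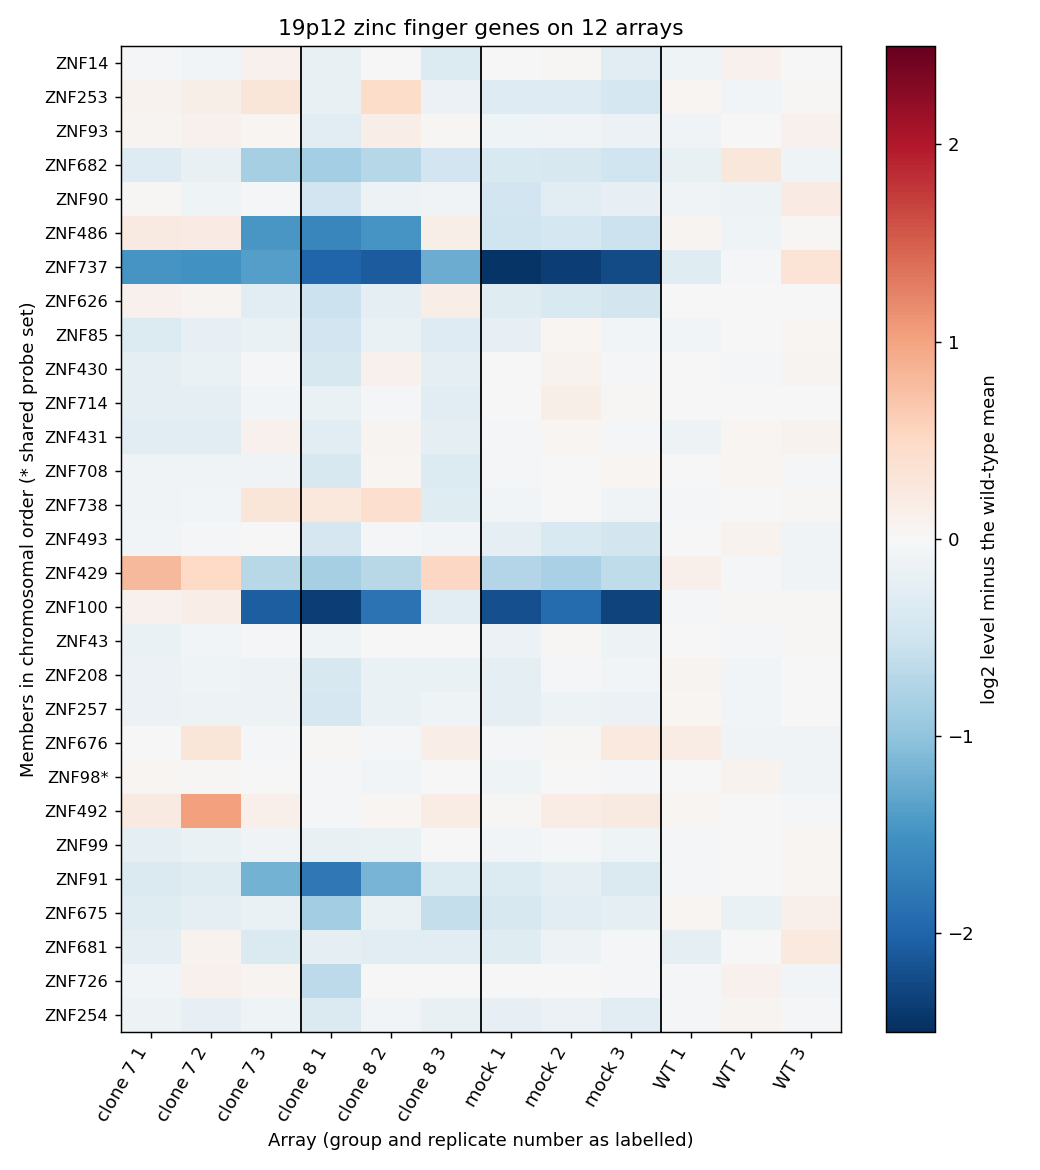
Log2 level of each of the 29 measured members (rows, in chromosomal order) on each of the 12 arrays (columns, as labelled) minus the mean of the 3 wild-type arrays; blue is lower and red higher than wild-type. ZNF737 is lower on all clone and mock arrays, and ZNF100, ZNF429, ZNF486 and ZNF91 split the clone arrays across the labels.

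ZNF737, a KRAB zinc finger gene with no target assigned here, differed most between groups. Its log2 level was 6.41, 6.36 and 6.50 in clone 7, 5.87, 5.80 and 6.64 in clone 8, 5.42, 5.53 and 5.65 in mock and 7.58, 7.85 and 8.22 in wild-type cells. The wild-type arrays were above all others, and the mock arrays below all others. Mock was 5.10-fold below wild-type (log2 -2.35 ± 0.20 SE), clone 7 was 1.86-fold above mock (0.89 ± 0.20) and clone 8 was 1.48-fold above mock (0.57 ± 0.20). Without the third clone arrays clone 7 was 1.81-fold (0.85 ± 0.14) and clone 8 1.23-fold (0.30 ± 0.14) above mock. All 9 clone and mock levels lay below the lower quartile of their array, where probes respond little, so the size of these folds is uncertain. In bulk RNA, fewer cells with the transcript and less transcript per cell cannot be told apart.

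**Figure D3:**
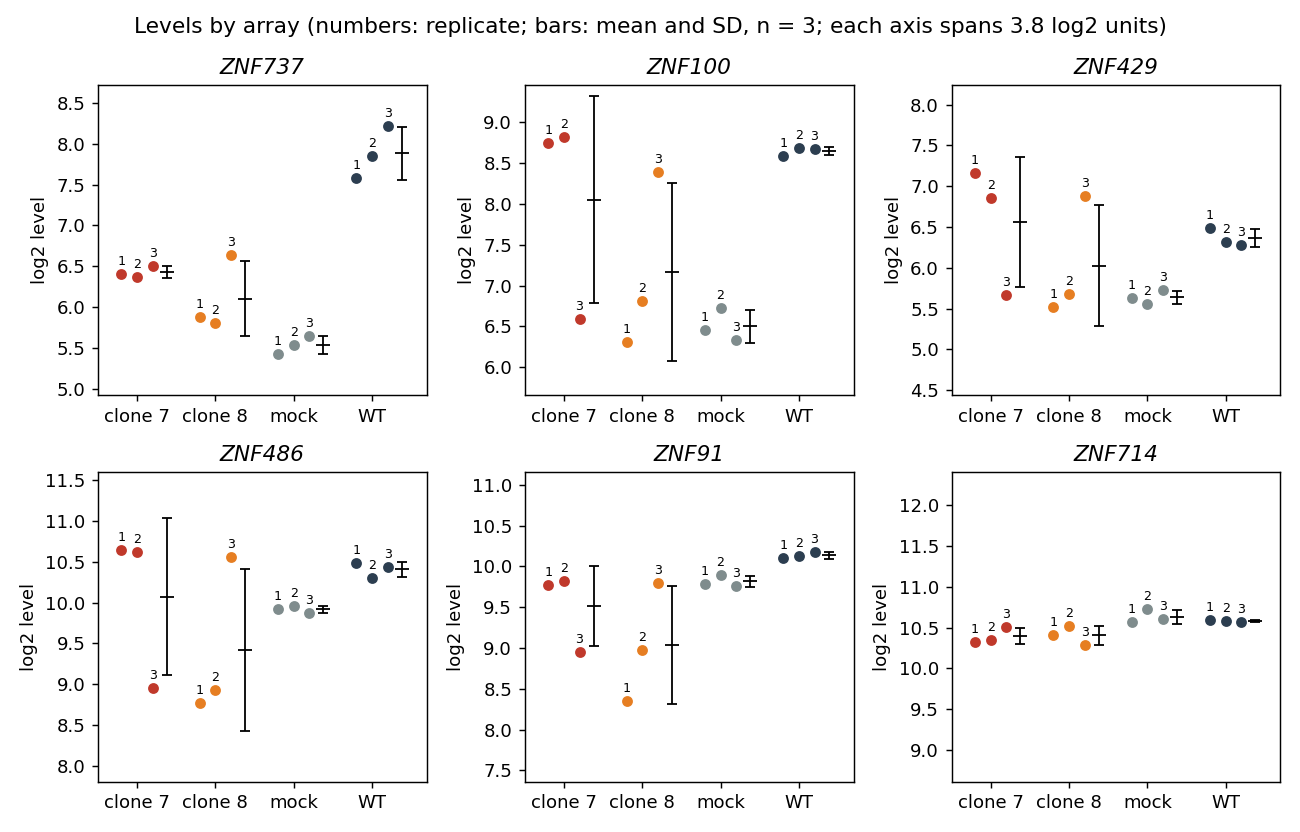
Log2 level on each array of 6 members, by group (clone 7, clone 8, mock, wild-type); numbers give the replicate, bars the mean and SD of 3 arrays, and each axis spans 3.8 log2 units. In ZNF100, ZNF429, ZNF486 and ZNF91 the third array of each clone sits with the other clone, and ZNF714 stays between 10.29 and 10.73.

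The comparison of the clones with mock sets the lines carrying hHSS1 against the line with the empty vector. There 0 of the other 28 members passed both limits (adjusted p under 0.05 by limma and at least 1.5-fold), compared with 0.728% of all genes. These limits follow the study's A172 gene tables, for which it does not name the test. At an unadjusted p under 0.05 there were 5, where 20% of all genes had such a p. The adjusted p alone was passed by ZNF253, where 6.38% of all genes passed it. ZNF253 was at 8.76, 8.83 and 8.99 in clone 7, 8.51, 9.15 and 8.54 in clone 8, 8.36, 8.35 and 8.24 in mock and 8.72, 8.62 and 8.70 in wild-type cells. Every clone array was above every mock array, while clones and wild-type overlapped (clones over mock 1.39-fold, log2 0.48 ± 0.12, adjusted p = 0.0341). That call was lost with all probe sets tested together (adjusted p = 0.0704) and after quantile normalization (adjusted p = 0.0748), but kept in the 10 arrays (0.49 ± 0.12, adjusted p = 0.0166). It was also lost without any 1 of the 3 mock or 3 wild-type arrays and without clone 7 replicate 1 or 2 (adjusted p up to 0.153). On the 9 arrays, with 1 array of clone 8, the ZNF253 difference was log2 0.65, past 1.5-fold. The median of the other members was -0.01 in the clones against mock, and that of all genes 0.01.

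ZNF714 did not pass the adjusted p on 12 arrays, although its levels in the clones and in mock did not overlap. It was at 10.33, 10.35 and 10.51 in clone 7, 10.41, 10.53 and 10.29 in clone 8, 10.57, 10.73 and 10.61 in mock and 10.59, 10.58 and 10.57 in wild-type cells. Of the other 28 members ZNF714 alone had every clone array below every mock array, which 8.39% of all genes showed, and ZNF253 alone had every clone array above, which 5.77% showed. The ZNF714 difference was log2 -0.23 ± 0.06 on 12 arrays (adjusted p = 0.0545) and -0.23 ± 0.06 on 10 arrays (adjusted p = 0.0182). On the 10 arrays ZNF626 (0.24 ± 0.07, adjusted p = 0.0447) and ZNF738 (0.19 ± 0.05, adjusted p = 0.0384) were higher in the clones by the adjusted p alone, where 13.1% of all genes passed it. A second probe set of ZNF626 did not show that rise: on 12 arrays it gave log2 0.02, where the probe set used gave 0.27.

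Clone by clone, 0 of the other 28 members passed both limits against mock in all 12 arrays, in clone 7 (0.7% of all genes) or in clone 8 (0.76%). The unadjusted p was under 0.05 for 7 members in clone 7, compared with 14.7% of all genes, and for 5 in clone 8, compared with 21.8%. The per-array values show what the labelled groups held. ZNF100, in the middle of the cluster, was at 8.75, 8.82 and 6.59 in clone 7, 6.30, 6.81 and 8.39 in clone 8, 6.45, 6.72 and 6.33 in mock and 8.59, 8.68 and 8.67 in wild-type cells. It was high on 3 clone arrays and all wild-type arrays and low on the other 3 clone arrays and all mock arrays, and the third array of each clone had the level of the other clone. The 6 low arrays lay below their lower quartile, so the size of the folds of ZNF100 is uncertain. ZNF100 was picked for its values, as were the other members named from here on.

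ZNF429 had the same split. It was at 7.16, 6.86 and 5.66 in clone 7, 5.52, 5.67 and 6.87 in clone 8, 5.63, 5.55 and 5.72 in mock and 6.48, 6.32 and 6.27 in wild-type cells. The 3 high clone arrays were above wild-type, and the 3 low ones overlapped mock. On 11 arrays ZNF429 lay under the lower quartile, so the size of its folds is uncertain too.

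ZNF486 and ZNF91 split the clone arrays as well, but with mock nearer to wild-type. ZNF486 was at 10.64, 10.62 and 8.96 in clone 7, 8.77, 8.93 and 10.56 in clone 8, 9.92, 9.96 and 9.87 in mock and 10.49, 10.31 and 10.44 in wild-type cells. Here 3 clone arrays were above all others and 3 were below all others. ZNF91, the SVA repressor, was at 9.77, 9.82 and 8.95 in clone 7, 8.35, 8.97 and 9.79 in clone 8, 9.79, 9.90 and 9.76 in mock and 10.10, 10.12 and 10.18 in wild-type cells. Its 3 low clone arrays were the same arrays on which ZNF100, ZNF429 and ZNF486 were low, namely clone 8 replicates 1 and 2 and the array labelled clone 7 replicate 3.

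Without the third clone arrays, the clones parted. Against mock, clone 7 was higher in ZNF100 (4.87-fold, log2 2.28 ± 0.14, adjusted p = 2.26e-06), ZNF429 (2.59-fold, 1.37 ± 0.10, adjusted p = 1.05e-05) and ZNF486 (1.64-fold, 0.71 ± 0.07, adjusted p = 0.000114), so that 3 of the other 28 members passed both limits upward, where 1.43% of all genes did. Clone 8 was lower than mock in ZNF91 (2.23-fold, log2 -1.16 ± 0.14, adjusted p = 0.000213) and ZNF486 (2.09-fold, -1.07 ± 0.07, adjusted p = 5.14e-06), which made 2 of 28 downward, where 1.28% of all genes were lower. ZNF100 and ZNF429 in clone 8 differed little from mock (log2 0.05 ± 0.14 and -0.04 ± 0.10). With both clones pooled, ZNF100 (log2 1.17 ± 0.11, adjusted p = 0.000103) and ZNF429 (0.67 ± 0.08, adjusted p = 0.000481) were higher and ZNF91 (-0.59 ± 0.11, adjusted p = 0.0057) lower than in mock, in a comparison where 1.04% of all genes passed both limits. These pooled means averaged 2 clones with unlike values.

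Set directly against each other on the 12 arrays, clone 8 and clone 7 differed past both limits in 0 of 18418 genes, and 2 of the other 28 members had an unadjusted p under 0.05, compared with 7.21% of all genes. On the 10 arrays 617 genes (3.35%) differed, and 5 of the 28 members were lower in clone 8. ZNF100 was 4.69-fold lower (log2 -2.23 ± 0.15, adjusted p = 2.99e-06), with means of 6.56 in clone 8 and 8.78 in clone 7. ZNF486 was 3.44-fold lower (-1.78 ± 0.08, adjusted p = 1.41e-07), with means of 8.85 in clone 8 and 10.63 in clone 7. ZNF429 (2.66-fold, -1.41 ± 0.11, adjusted p = 9.92e-06) and ZNF91 (2.20-fold, -1.14 ± 0.15, adjusted p = 0.000366) were lower too. The fifth, ZNF492 (1.53-fold, -0.62 ± 0.19, adjusted p = 0.0424), rested on 1 array: it was at 6.72, 6.81 and 6.94 in clone 8 and at 6.98, 7.79 and 6.88 in clone 7. In the direction of clone 8 lower, 2.41% of all genes passed. By the adjusted p alone ZNF626 and ZNF682 were also lower and ZNF738 higher in clone 8, where 17.2% of all genes passed in either direction. On 9 arrays clone 8 had 1 array, taken to vary like the other groups, and 4 members were lower in it: ZNF100 (log2 -1.98 ± 0.13, adjusted p = 1.75e-06), ZNF486 (-1.70 ± 0.08, adjusted p = 2.04e-07), ZNF429 (-1.33 ± 0.12, adjusted p = 3.08e-05) and ZNF91 (-0.83 ± 0.08, adjusted p = 3.07e-05). ZNF492 did not pass (adjusted p = 0.111).

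**Figure D4:**
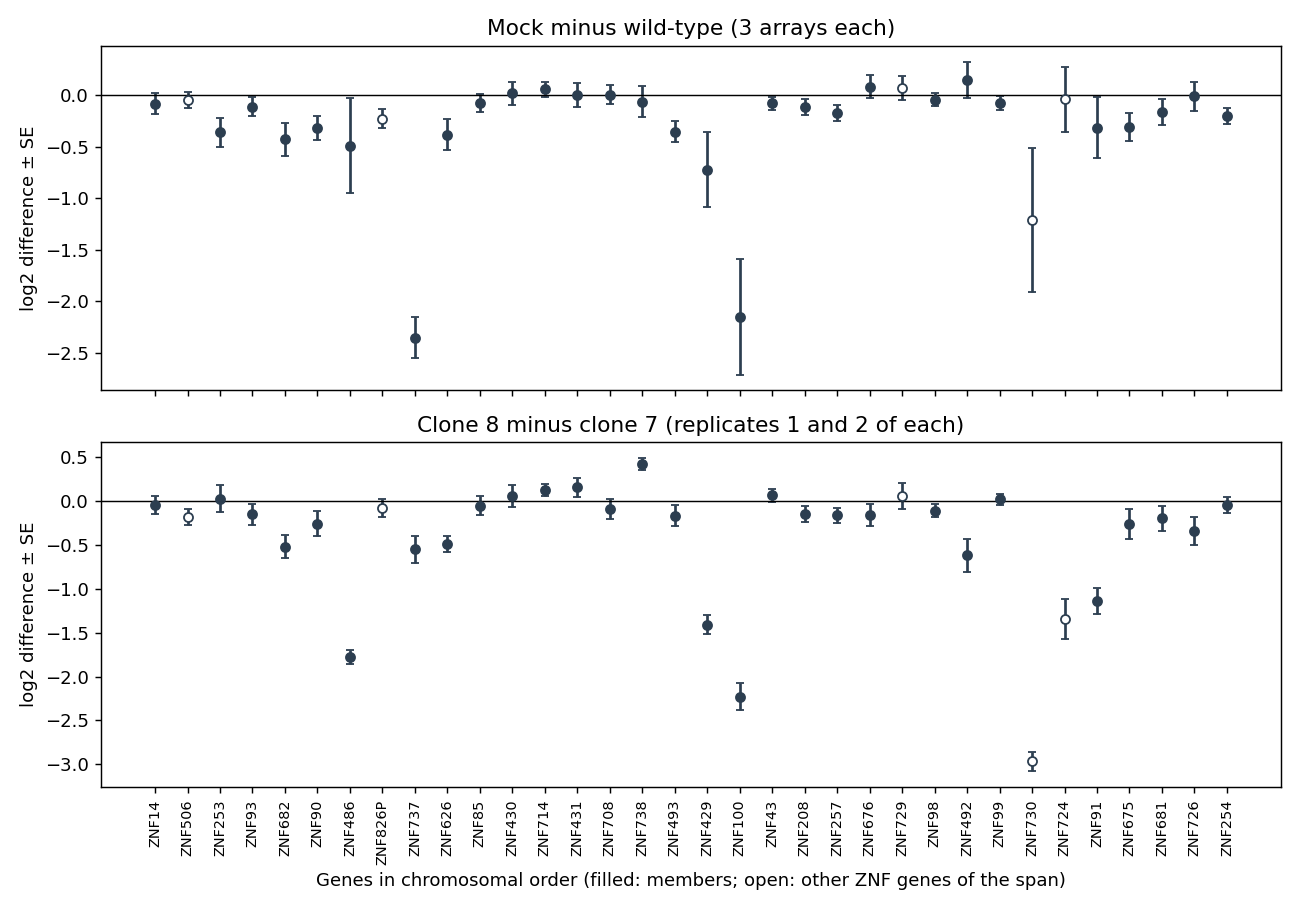
Log2 difference ± SE of each measured zinc finger gene along the cluster (horizontal axis, chromosomal order; filled points are members, open points other ZNF genes of the span): above, mock minus wild-type from all 12 arrays; below, clone 8 minus clone 7 from replicates 1 and 2 of each. ZNF737 and ZNF100 are lowest above (-2.35 and -2.15), and ZNF100 and ZNF486 are the lowest members below (-2.23 and -1.78).

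Mock and wild-type cells differed in the empty vector, in selection and in being separate lines, and these cannot be told apart. Of the other 28 members 23 had a lower mean in mock, with a median of -0.12, while the median of all genes was 0.02. In 13 of the 28 every mock array was below every wild-type array, compared with 13.3% of all genes, and in 0 of the 28 every mock array was above, compared with 15.6% of all genes. The 13 were ZNF253, ZNF93, ZNF682, ZNF90, ZNF486, ZNF626, ZNF493, ZNF429, ZNF100, ZNF257, ZNF91, ZNF675 and ZNF254. Among the other 28 members 0 passed both limits or the adjusted p by limma on 12 arrays, where 0.673% of all genes passed both and 2.24% the adjusted p, and 9 had an unadjusted p under 0.05, compared with 12.1% of all genes. The mock mean of ZNF100 was 4.44-fold below that of wild-type and its groups did not overlap, but with the spread of the clone arrays in the shared error its adjusted p was 0.0769 (log2 -2.15 ± 0.56).

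On the 10 arrays, where that error was smaller, ZNF100 (log2 -2.15 ± 0.12, adjusted p = 1.66e-06) and ZNF429 (1.65-fold, -0.72 ± 0.09, adjusted p = 0.000461) were lower in mock, 2 of 28, where 0.619% of all genes were lower. ZNF486 (-0.49 ± 0.07), ZNF682 (-0.43 ± 0.10) and ZNF626 passed the adjusted p alone, where 7.07% of all genes passed it. ZNF626 was at 9.80 ± 0.08 in mock and 10.19 ± 0.02 in wild-type cells (SD, n = 3), and its second probe set gave 7.19 in mock and 7.92 in wild-type cells, a log2 difference of -0.73. The mock arrays serve in this comparison and in that of the clones with mock, so that a low value in mock enters both. For ZNF737 the group means were 6.43 in clone 7, 6.10 in clone 8, 5.53 in mock and 7.88 in wild-type cells.

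Against wild-type, 23 of the other 28 members had a lower mean in the clones, with a median of -0.14, while that of all genes was 0.03. Every clone array was below every wild-type array in 7 of the 28 (ZNF682, ZNF85, ZNF714, ZNF208, ZNF257, ZNF91 and ZNF254), compared with 8.38% of all genes, and above in 0, compared with 6.88%. ZNF737 was 3.07-fold lower (log2 -1.62 ± 0.17) on 12 arrays and 3.42-fold lower on 10. Of the other 28 members 0 passed both limits on 12 arrays, where 1.58% of all genes did, and 9 had an unadjusted p under 0.05, compared with 25.1% of all genes. ZNF682 (log2 -0.56 ± 0.14, adjusted p = 0.0243) and ZNF85 (-0.28 ± 0.08, adjusted p = 0.0379) passed the adjusted p alone, where 9.95% of all genes passed. ZNF682 was at 7.41, 7.55 and 6.90 in clone 7, 6.89, 7.03 and 7.25 in clone 8 and 7.56, 8.01 and 7.63 in wild-type cells, so that the nearest arrays all but touched. Its call was lost without wild-type replicate 2 (adjusted p = 0.149) or 3 (adjusted p = 0.0675), and that of ZNF85 in 7 of 12 omissions of 1 array (adjusted p up to 0.168). On the 10 arrays ZNF100 (-0.98 ± 0.11, adjusted p = 0.000169), ZNF486 (-0.67 ± 0.06, adjusted p = 2.84e-05) and ZNF91 (-0.91 ± 0.11, adjusted p = 0.00027) passed both limits, 3 of 28, where 0.831% of all genes were lower.

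The remaining members differed less between arrays. ZNF93, which binds LINE-1 elements, was at 9.31 to 9.37 in clone 7, 8.97 to 9.42 in clone 8, 9.12 to 9.16 in mock and 9.17 to 9.36 in wild-type cells, with clones and both controls overlapping in clone 8. ZNF675, an inhibitor of TRAF6 signalling, averaged 9.58 ± 0.07 in clone 7, 9.27 ± 0.35 in clone 8, 9.50 ± 0.09 in mock and 9.81 ± 0.15 in wild-type cells (SD, n = 3). ZNF43, ZNF98, ZNF99, ZNF676, ZNF431 and ZNF208 had ranges of 0.19 to 0.46 log2 units over all 12 arrays. The ranges of ZNF14, ZNF254, ZNF714, ZNF93, ZNF708, ZNF257, ZNF430, ZNF85, ZNF493, ZNF681, ZNF90, ZNF626, ZNF738 and ZNF726 were 0.44 to 0.76, with those of ZNF253 and ZNF675 at 0.90 and 0.99. For ZNF98 the shared probe set cannot be assigned to 1 gene, and the dim members ZNF43, ZNF676, ZNF99 and ZNF681 give little room for a decrease to be seen. ZNF43, ZNF676 and ZNF99 are also named, with 5 other genes, on a shared probe set at group means of 13.58 to 13.66, which cannot be assigned to 1 gene.

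Genes between the members split the clone arrays as well. The span holds 8 further measured genes, of which 0 passed both limits on 12 arrays in any of the 6 comparisons. ZNF730, a zinc finger gene of the same span that is not on the member list, was at 9.42, 9.55 and 6.82 in clone 7, 6.39, 6.64 and 9.002 in clone 8, 8.70, 8.97 and 8.66 in mock and 10.02, 9.98 and 9.96 in wild-type cells. Clone 8 was 7.82-fold below clone 7 on the 10 arrays (log2 -2.97 ± 0.11, adjusted p = 3.45e-08), and mock 2.32-fold below wild-type (-1.21 ± 0.09, adjusted p = 1.29e-05). The 3 lowest arrays of ZNF730 lay below their lower quartile, so the fold between the clones is uncertain in size. ZNF724, near ZNF91, was at 7.91, 8.84 and 9.59 in clone 8 and 9.74, 9.71 and 9.11 in clone 7 (log2 -1.35 ± 0.23 on 10 arrays, adjusted p = 0.00205). ZNF730 and ZNF724 were the 2 of 8 that passed both limits there. ZNF506, ZNF826P, ZNF729, CCNYL6, GOLGA2P9 and RPSA2 did not pass.

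The 15 nearest measured genes on either side were set beside the cluster. Of the 15 measured genes on each side of the cluster, 0 passed both limits in any of the 6 comparisons on 12 arrays, and their medians in the clones against mock were 0.04 on the telomeric side and 0.09 across the centromere. In mock against wild-type cells those across the centromere had a median of -0.13, with 13 of 15 below 0 and 2 lower by the adjusted p, and those on the telomeric side a median of -0.04, with 10 of 15 below 0. The 10 measured relatives on chromosome 7q11, which descend from the same family, had a median of -0.06 in the clones against mock, with 0 past both limits and ZNF107 (log2 -0.24 ± 0.06, adjusted p = 0.031) and ZNF680 (-0.33 ± 0.08, adjusted p = 0.0382) lower by the adjusted p. Among 209 further zinc finger genes of chromosome 19 the median was 0.05 and ZNF649 alone passed both limits, lower in the clones. On the 10 arrays ZNF28, higher in the clones, passed them as well. In clone 7 against mock on the 10 arrays 7 of the 209 were higher and 1 lower past both limits, where 1.43% of all genes were higher. In mock against wild-type cells their median was -0.05, with 144 of 209 below 0, 14 lower by the adjusted p and ZNF83 past both limits. Among 272 zinc finger genes of other chromosomes the median was -0.03, and ZNF22 (log2 1.62 ± 0.21) and ZNF518B (1.18 ± 0.23) passed both limits, higher in the clones, and in mock against wild-type cells the median was -0.01, with 151 of 272 below 0.

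Genes linked to KRAB repression were read as a list together with wider chromatin and DNA methylation genes. It was not confined to direct partners of KRAB proteins and named the zinc finger genes ZNF445 and ZFP57 too. Of 27 measured genes of this list 0 passed both limits in any comparison on 12 arrays, where at most 1.58% of all genes did. By the adjusted p alone 3 were lower in the clones relative to mock, where 6.38% of all genes passed it in either direction. They were UHRF1 (log2 -0.29 ± 0.06, adjusted p = 0.0177), which reads hemimethylated DNA, the maintenance methyltransferase DNMT1 (-0.27 ± 0.06, adjusted p = 0.0178) and the histone demethylase KDM1A (-0.25 ± 0.06, adjusted p = 0.02). On the 10 arrays 5 were lower, where 13.1% of all genes passed. In the clones against wild-type on 12 arrays 6 of the 27 were lower and 1 higher by the adjusted p, where 9.95% of all genes passed it. The co-repressor TRIM28 itself differed by -0.03 ± 0.06 (adjusted p = 0.838) between clones and mock and by 0.03 ± 0.07 between mock and wild-type cells. SETDB1 was lower in the clones than in wild-type cells (log2 -0.42 ± 0.09, adjusted p = 0.00913) and differed by -0.20 ± 0.09 from mock (adjusted p = 0.221). The median of the list was -0.07 in the clones against mock, and that of all genes 0.01.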

How the data were processed

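Total RNA of 12 A172 cultures was hybridised to GeneChip Human Gene 1.0 ST arrays (Affymetrix). The table deposited by the authors holds log2 values, already summarised and normalised, for 33297 probe sets on 12 arrays with 0 missing values. Per the labels the software was Partek, while the background correction, the normalisation and the genome build are not given in the sources used here. Arrays have no read depth, and precision depends on their number per group and on the spread between them. The median SD of a gene was 0.055 in mock, 0.071 in wild-type, 0.082 in clone 7 and 0.144 in clone 8, as labelled.

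Probe sets were named from the platform annotation: 19460 have 1 symbol, 1754 several and 12083 none, and 19429 matched the GRCh38.p14 RefSeq gene table by Entrez number. The single-symbol probe set with the highest mean over 12 arrays stood for each of 18417 genes, and 1 shared probe set was added for ZNF98. The values were fitted with limma 3.58.1 (lmFit, eBayes) in R 4.3.3, with 4 groups sharing 1 error and equal weight for each clone. P-values were adjusted by Benjamini-Hochberg over all 18418 genes of a comparison. A gene passed both limits at an adjusted p under 0.05 and at least 1.5-fold. These limits follow the study's A172 gene tables, whose test is not named, and the study used other cutoffs for its network analysis. The fit was tested on simulated data. Titles number the replicates as separate cultures, and p-values measure only the spread between these. Correlations of deviations between same-numbered samples ran from -0.83 to 0.45 (4 of 18 above 0.1), so the numbers were not treated as pairs.

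The members and gene lists were chosen with earlier results of these data known. ZNF737 and members that passed both limits on 12 arrays were to be named by array, and the others named (ZNF100, ZNF429, ZNF486, ZNF91, ZNF492, ZNF253, ZNF682, ZNF714, and ZNF730 and ZNF724 outside the list) were chosen after their values were seen. From the other lists, up to 4 genes with the smallest adjusted p and those past both limits in the clones against mock could be named. Promoters came from RefSeq, and local alignments were made with Biopython 1.88. Alternatives were all probe sets, a filter on dim genes, quantile normalization, a variance trend, array weights, a replicate block, other probe sets of a member, each array left out, and, added after the data were seen, the third array of both clones left out, with and without clone 8 replicate 1.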

Additional observations from a re-analysis of the deposited data

Results flagged for a closer look

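With the third array of each clone left out, 5 members differed between the clones by a test of the difference itself (clone 8 minus clone 7, limma on 10 arrays). The log2 difference was -2.23 for ZNF100 (adjusted p = 2.99e-06), -1.78 for ZNF486 (adjusted p = 1.41e-07), -1.41 for ZNF429 (adjusted p = 9.92e-06) and -1.14 for ZNF91 (adjusted p = 0.000366). ZNF492, at -0.62 (adjusted p = 0.0424), had its highest level on clone 7 replicate 2 (7.79) and 6.71 to 6.98 on the other 11 arrays. On all 12 arrays as labelled the differences were -0.88 for ZNF100, -0.65 for ZNF486, -0.54 for ZNF429, -0.48 for ZNF91 and -0.39 for ZNF492, and 0 of these passed the adjusted p.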

How the results depend on the processing

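Counts of members here leave out ZNF737. On 12 arrays 0 of the other 28 passed both limits in any of the 6 comparisons. For the clones against wild-type 1 passed with the filter on dim genes, quantile normalization, a variance trend or array weights, and array weights gave 2 for the clones against mock, 3 for clone 7 against mock and 2 for mock against wild-type. Without the third array of both clones the counts were 3 for the clones, 3 for clone 7 and 2 for clone 8 against mock, 5 for clone 8 against clone 7, 2 for mock and 3 for the clones against wild-type. With clone 8 replicate 1 left out too they were 3 for the clones, 3 for clone 7 and 3 for clone 8 against mock, 4 for clone 8 against clone 7, 2 for mock and 3 for the clones against wild-type. Leaving out 1 array at a time gave 0 to 2 for the clones, 0 to 2 for clone 7 and 0 to 1 for clone 8 against mock, 0 for clone 8 against clone 7, 0 to 1 for mock and 0 to 3 for the clones against wild-type. Without the array labelled clone 7 replicate 3 there were 2 for the clones and 2 for clone 7 against mock and 1 for mock against wild-type. Without the array labelled clone 8 replicate 3 there were 1 for the clones and 1 for clone 8 against mock, 1 for mock and 3 for the clones against wild-type. For the clones against wild-type 1 passed without wild-type replicate 1 or clone 7 replicate 1 or 2. The cause was not tested.

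Over all genes, 291 passed in the clones against wild-type and 537 with all probe sets. Array weights gave 205 in place of 134 for the clones against mock, 346 in place of 129 for clone 7 against mock and 201 in place of 124 for mock against wild-type. Without the third array of either clone there were 399 for clone 7 and 379 in place of 140 for clone 8 against mock, 617 in place of 0 for clone 8 against clone 7, and 199 for mock against wild-type. With clone 8 replicate 1 left out too there were 210 for the clones, 402 for clone 7 and 383 for clone 8 against mock, 590 for clone 8 against clone 7 and 200 for mock against wild-type. Without the array labelled clone 7 replicate 3 clone 7 against mock gave 277 genes, and clone 8 against mock gave 277 without the array labelled clone 8 replicate 3 and 88 without mock replicate 2.

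ZNF486 in clone 7 against mock (log2 0.16) turned to -0.13 without clone 7 replicate 1 and to -0.12 without replicate 2, and was 0.71 without the array labelled replicate 3. The ZNF253 call in the clones against mock was lost in 8 of 12 omissions of 1 array, with adjusted p up to 0.153, and that of ZNF682 in the clones against wild-type without wild-type replicate 2 (0.149) or 3 (0.0675). ZNF85 lost its call against wild-type with all probe sets (0.059) and in 7 omissions.

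With the replicate number as a block, every count of members was as without it (0 in the clones against mock), and ZNF253 in the clones against mock had an adjusted p of 0.0597. The numbers are not known to pair the samples.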
